A study of Mus musculus with 4 samples.

Results

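The genes described here are 10 regulators of blood stem cells and early progenitors, the transcription factor genes Gfi1b, Bcl11a, Hoxa9, Mef2c, Lmo2, Meis1, Spi1, Hhex and Lyl1 and the receptor gene Kit. They were chosen by symbol, with earlier results of these data known. The choice was made among 19938 genes that the array platform's annotation ties to a probe set with exactly 1 gene symbol. Each of the 10 has 1 such probe set. Their levels were read in DN4 thymocytes, immature T cells that lack CD4 and CD8 and are classed as the last stage before those coreceptors appear. The cells were sorted from 4 mice that all carried floxed alleles of the Ikaros gene Ikzf1 (Ikf/f) and all were injected with tamoxifen (50 mg/kg, once a day over 4 days), with analysis 24 h after the last dose. Mice 129 and 135 (Cre+) also carried Rosa26-CreERT2, a tamoxifen-activated recombinase driven by a broadly active locus, and mice 131 and 137 (Cre-) did not, per the titles and the series' design text. The treatment field of all 4 labels names the CreERT2+ genotype, so the titles set the groups. Strain, age and sex are not in the labels used here, and since Rosa26 is active in most tissues, deletion need not have been limited to thymocytes.

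Progenitors that seed the thymus arrive with a stem and progenitor programme still active, and they shut it down as they commit to the T lineage. LMO2 and LYL1 act in one protein complex with E proteins and GATA factors, HOXA9 and MEIS1 bind DNA together, PU.1 (the product of Spi1) drives myeloid and early lymphoid genes, and KIT is the receptor for stem cell factor. Several of these genes promote T cell leukaemia when they stay on, and Ikaros is a tumour suppressor of the same lineage that can repress or activate its targets. The question asked of the data was which of the 10 genes lay at the level of genes that thymocytes do not use, and which were higher in Cre+ cells.

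Gfi1b was higher and Bcl11a lower in Cre+ cells, and neither passed the adjusted threshold. The sequences before the RefSeq start sites of both genes are shown because they hold the core of the Ikaros binding site, GGGAA, and that of Hoxa9 because it holds the same core at a gene whose level differed little. The match was searched on both strands in the 250 bases before each start site, in GRCm38.p6, and capitals mark each match (TTCCC is the match on the other strand). The Gfi1b sequence is chr2:28621983-28622232, minus strand, the Hoxa9 sequence is chr6:52227371-52227620, minus strand, and the Bcl11a sequence is a stretch of 30 bases at chr11:24080523-24080552, plus strand. All are written 5′ to 3′ along the gene.
Gfi1b: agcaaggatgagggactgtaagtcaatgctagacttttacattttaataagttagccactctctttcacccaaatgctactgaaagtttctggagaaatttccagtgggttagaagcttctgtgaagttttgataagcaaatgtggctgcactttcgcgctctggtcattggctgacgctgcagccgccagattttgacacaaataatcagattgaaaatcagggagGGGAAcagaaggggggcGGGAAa
Bcl11a: ggggtgctcattGGGAAttgaatttTTCCC
Hoxa9: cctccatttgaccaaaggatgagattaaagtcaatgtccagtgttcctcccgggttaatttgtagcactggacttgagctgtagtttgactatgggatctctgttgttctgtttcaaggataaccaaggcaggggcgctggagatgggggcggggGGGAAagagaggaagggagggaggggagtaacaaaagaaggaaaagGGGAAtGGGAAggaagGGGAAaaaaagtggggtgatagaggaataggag
Gfi1b held 2 matches, whose first bases lay 23 and 6 bases before the start site. Bcl11a held 2, at 160 and 147 bases before it, and Hoxa9 held 4. Of the 8 genes with an entry in the RefSeq promoter table (all but Lmo2 and Spi1), 5 held a match at 1 start site or more, the others being Meis1 and Mef2c. Over all 27025 genes of that table, 59.4% held one, and over all 32851 start sites 56.2%. Start sites with 2 matches or more made up 21.2%, and those with 3 or more 5.88%. The longer form TGGGAA, which contains the first motif, was held by Bcl11a, Hoxa9 and Meis1, each once. Over all genes 24.1% held it, and over all start sites 21.6%. These letters are common, and a match is neither a bound site nor a cause of a difference.

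The deposited values are log2 expression values made with RMA, a method that scales arrays to one distribution, so a difference of 1 is a doubling of signal. They ran from 3.14 to 14.4, with array medians between 6.85 and 6.88, and 2 arrays in each group limit the precision of every value. Ikzf1 itself read 12.06 and 11.99 with Cre and 12.07 and 12.11 without it (adjusted p = 0.925 from limma), and where its probes lie relative to the floxed part was not analysed here. Markers of the stage were high on all 4 arrays, with Cd3e between 12.84 and 13.16 and the pre-TCR gene Ptcra between 9.40 and 9.76. Cd44, which DN4 cells lack on their surface, was between 5.90 and 6.40. Il2ra, whose protein CD25 is also used to separate DN3 from DN4 cells, was between 10.71 and 11.58, so its transcript was well present. By the X-linked Xist transcript, the females were 129 and 131, the males 135 and 137, so each group held 1 of each sex.

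To judge which genes were silent, their values were set beside genes that thymocytes are not expected to use. Over 1027 olfactory receptor genes the median level was 4.59 and the 95th percentile 6.15. Of a list of 30 genes of other tissues (liver, pancreas, muscle, brain and others), 27 were measured, with means between 4.02 and 7.43 and a median of 5.89. The Y-linked genes Kdm5d, Eif2s3y and Uty, which cannot be transcribed in the females, read between 4.39 and 5.27 in them and between 8.61 and 9.49 in the males. Probes differ in brightness, so these ranges give a rough floor for the array and order no genes among themselves.

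Hoxa9, Meis1 and Spi1 lay under the 95th percentile of the olfactory receptor genes in all 4 mice. Mef2c, Lmo2, Hhex and Lyl1 lay between that level and the highest tissue gene, Apoa2, in all 4 mice, where expression and background cannot be separated on these arrays. Gfi1b and Kit were above the highest tissue gene in every mouse. Some olfactory receptor genes also had means above it, with 3 from 7.5 to 7.75, 2 from 7.75 to 8.0 and 1 from 8.75 to 9.0. A level above the highest tissue gene therefore does not by itself establish expression. Bcl11a was above it in both Cre- mice and below it in both Cre+ mice.

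**Figure D1:**
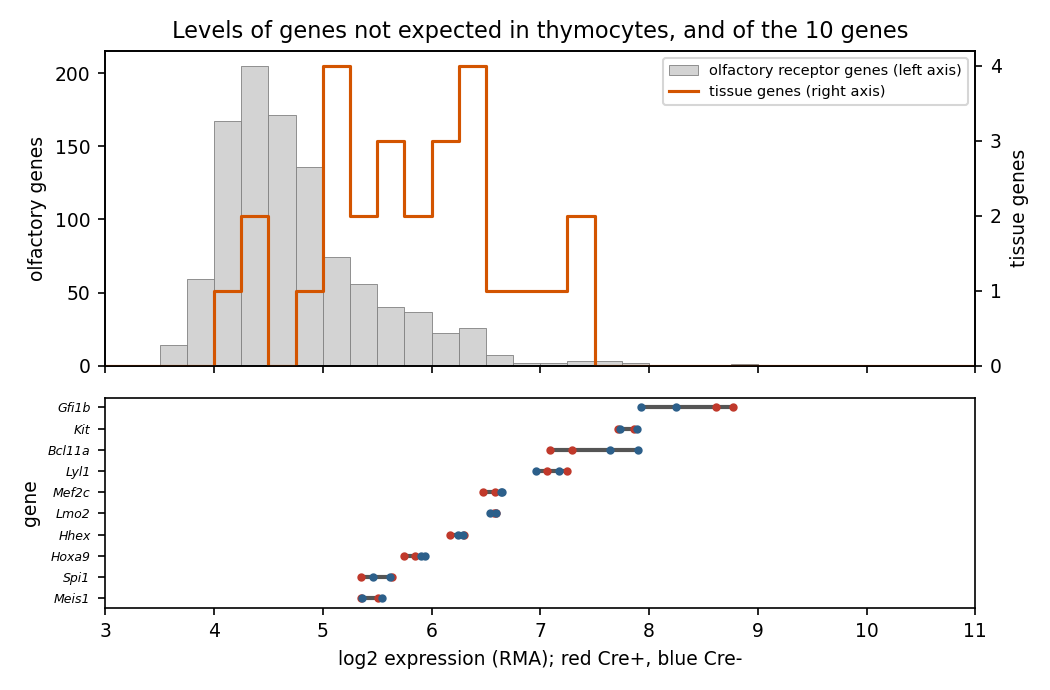
Upper panel, number of olfactory receptor genes (grey bars, left axis) and of genes of other tissues (orange line, right axis) at each mean log2 level; lower panel, the level of each of the 10 genes in the 2 Cre+ (red) and 2 Cre- (blue) mice, with a bar from the lowest to the highest. Most of the 10 genes fall within the spread of the tissue genes, whose highest mean is 7.43, and Gfi1b and Kit lie to its right in all 4 mice.

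Gfi1b encodes a zinc-finger repressor needed for red cell and platelet formation and active in stem cells. It was at 8.62 in mouse 129 and 8.77 in mouse 135, against 8.25 in mouse 131 and 7.92 in mouse 137. Both Cre+ mice were above both Cre- mice, and the means of the groups lay further apart than the 0.15 between the Cre+ mice or the 0.32 between the Cre- mice. The difference, Cre+ minus Cre-, was 0.61 (SE 0.14, 95% interval 0.25 to 0.97), or 1.53-fold, with an adjusted p = 0.453 over all 35556 probe sets from limma. When only the 21789 probe sets with 1 gene symbol were tested, the adjusted p was 0.0703 from limma, again short of 0.05. It was larger in the male pair (0.85) than in the female pair (0.37). With each mouse left out in turn the difference ran from 0.45 to 0.77. In the restricted test its adjusted p from limma became 0.118 (mouse 129 left out), 0.234 (135), 0.0837 (137) or 0.00557 (131), so that 1 of these 4 fits called it. The fit without mouse 131 also called more probe sets in all, 2.2% of those tested against 1.22% with all mice.

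Bcl11a encodes a zinc-finger factor needed by early lymphoid progenitors and B cells, and known for silencing foetal globin in red cells. It was at 7.09 in mouse 129 and 7.29 in mouse 135, against 7.90 in mouse 131 and 7.64 in mouse 137. Again the groups did not overlap, now with Cre+ below Cre-. The difference was -0.58 (SE 0.14, 95% interval -0.93 to -0.23), or 1.49-fold lower, with an adjusted p = 0.473 over all probe sets and 0.0786 in the restricted test, both from limma. It was -0.80 in the female pair and -0.35 in the male pair. With each mouse left out in turn the difference ran from -0.70 to -0.45, and in the fit over all probe sets without mouse 129 (-0.48) its unadjusted p was no longer under 0.05. In the restricted test its adjusted p from limma became 0.452 (mouse 129 left out), 0.105 (131), 0.0899 (135) or 0.0156 (137), so that 1 of these 4 fits called it. The fit without mouse 137 called 1.77% of all probe sets tested. As these are bulk samples, a change in the number of cells of a type and a change in RNA per cell cannot be told apart. This holds for Gfi1b, Bcl11a and every gene below.

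**Figure D2:**
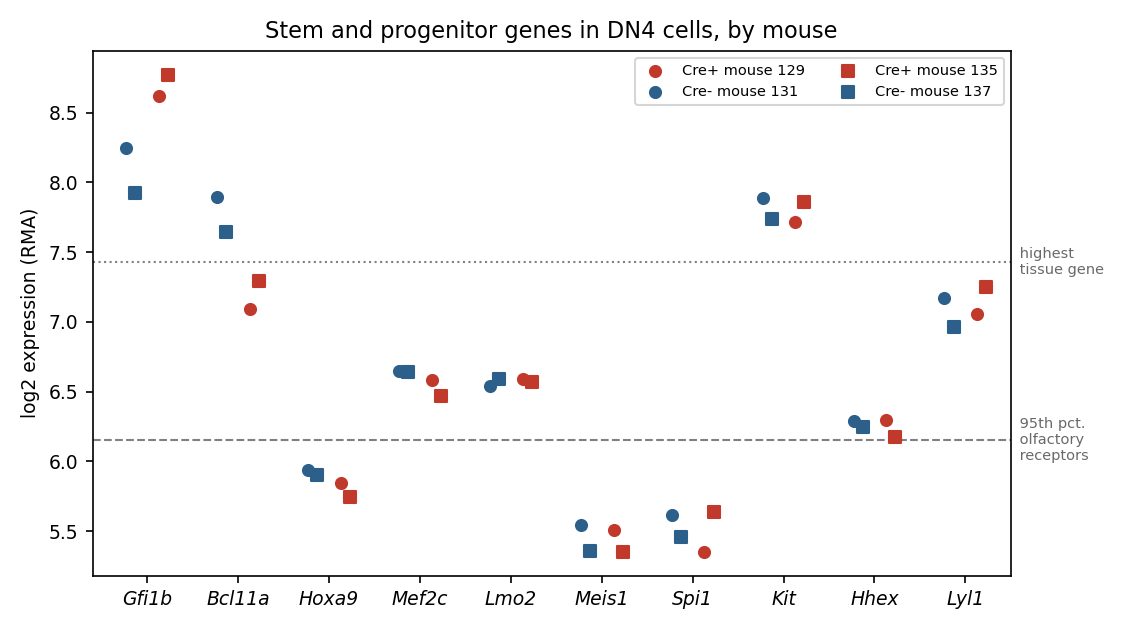
Log2 expression of the 10 genes in each mouse (red Cre+, blue Cre-; circles the female mice, squares the male mice), with the 95th percentile of olfactory receptor genes (dashed) and the highest tissue gene (dotted). For Gfi1b both red points lie above both blue points, for Bcl11a below, and Bcl11a crosses the dotted line at 7.43 between the groups.

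Kit, the progenitor receptor, lay above the highest tissue gene and differed little. It read 7.72 and 7.86 with Cre and 7.89 and 7.74 without it. The groups overlapped, with a difference of -0.03 (SE 0.11, 95% interval -0.31 to 0.26).

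Lmo2 and Lyl1, the complex partners that early progenitors express and that act as T cell oncogenes, did not differ beyond their spread. Lmo2 read 6.59 and 6.57 with Cre and 6.54 and 6.59 without it, a difference of 0.02 (SE 0.09, 95% interval -0.23 to 0.26). Lyl1 was at 7.06 and 7.25 against 7.17 and 6.96, a difference of 0.09 (SE 0.13, 95% interval -0.24 to 0.42). The groups overlapped for both genes.

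Hoxa9 and its cofactor gene Meis1 stayed near the floor in every mouse. Hoxa9 read 5.85 and 5.74 with Cre and 5.94 and 5.90 without it. These groups did not overlap, but the difference was small, -0.12 (SE 0.09, 95% interval -0.36 to 0.11). Meis1 was at 5.51 and 5.35 against 5.55 and 5.36, with overlapping groups and a difference of -0.02 (SE 0.11, 95% interval -0.31 to 0.26).

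Spi1, Mef2c and Hhex, factors that early progenitors share with myeloid and B cells, were not higher in Cre+ cells either. Spi1 read 5.35 and 5.64 with Cre and 5.62 and 5.46 without it, a difference of -0.04 (SE 0.13, 95% interval -0.38 to 0.29) with overlapping groups. Mef2c was at 6.58 and 6.47 against 6.64 and 6.64, so that both Cre+ values were lower, by -0.12 on average (SE 0.10, 95% interval -0.37 to 0.14). Hhex, a homeobox gene, was at 6.30 and 6.17 against 6.29 and 6.25, a difference of -0.03 (SE 0.10, 95% interval -0.29 to 0.22) with overlapping groups.

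None of the 7 genes in the range of the tissue genes was called in Cre+ cells. Their differences ran from -0.12 to 0.09, and the highest upper bound of the 95% intervals was 0.42, which is 1.34-fold. For comparison, the differences of the 27 tissue genes ran from -0.19 to 0.19.

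**Figure D3:**
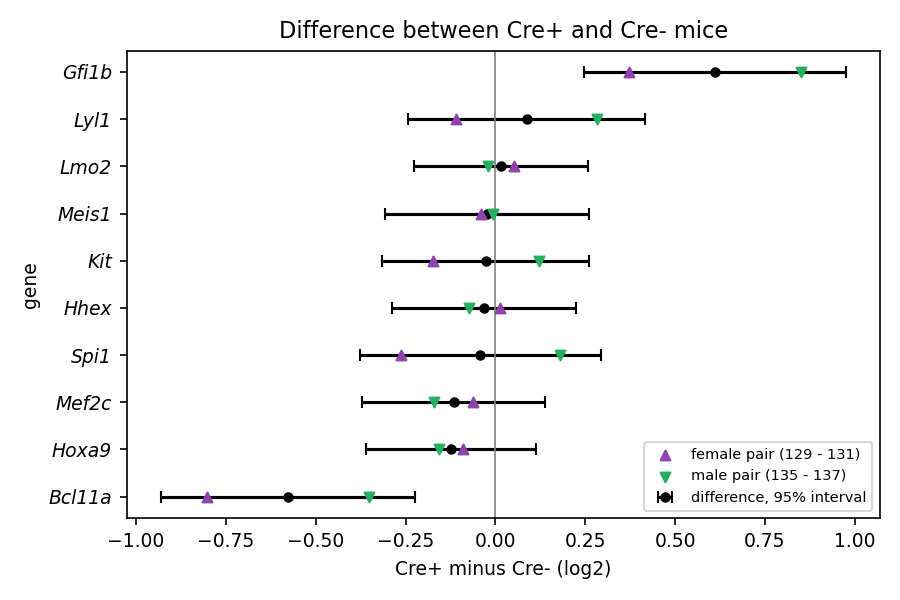
Difference of each gene between Cre+ and Cre- mice on the log2 scale (black, with limma's 95% interval), and the same within the female pair (purple) and the male pair (green). The intervals of Gfi1b and Bcl11a exclude 0 before adjustment, and the other 8 lie between -0.12 and 0.09 with intervals that include it.

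Over the 10 genes, 0 had an adjusted p under 0.05 in limma, as did 0.0% of all 35556 probe sets, the smallest adjusted p of all being 0.0570. In the restricted test 0 of the 10 passed, against 1.22% of probe sets (266 of 21789) and 1.25% of genes. At an unadjusted p under 0.05 there were 2 of the 10, against 6.86% of the 19938 genes and 6.63% of all probe sets. Groups that did not overlap were found for 1 gene higher (16.1% of all genes) and 3 lower (20.3% of all genes), or 40.0% of the 10 against 36.4%. Non-overlap was therefore no more than the background. Gfi1b and Bcl11a were also the only ones of the 10 with a difference over 0.5 in size, which 1.59% of all genes had. The 10 genes were chosen with earlier results of these data known, so a share above that of all genes cannot be read as enrichment. The median difference of the 10 was -0.03, against -0.01 over all genes. It was -0.11 without mouse 137, 0.013 without mouse 131 and 0.03 over the genes left by a filter at the median level, so its sign was not settled.

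The genes that work with these factors, or are known to respond to them, were listed from textbook knowledge. Further stem and progenitor genes (38 measured) were added. All lists were chosen with earlier results of these data known, so a share above that of all genes cannot be read as enrichment. Of 124 different genes measured, 10 were higher and 2 lower at an unadjusted p under 0.05 (9.68% in all, against 6.86% of all genes, of which 4.12% higher and 2.74% lower). None passed over all probe sets. In the restricted test 5 passed (4.03%, against 1.25% of genes, 0.953% counting higher ones alone), and all 5 were higher in Cre+ cells. Leaving out a mouse gave 2 (mouse 129), 4 (mouse 131), 3 (mouse 135) or 7 (mouse 137), an alternative chosen after seeing the data. The share of all probe sets called in those fits moved as well, to 0.633%, 2.2%, 1.27% and 1.77% in the same order, against 1.22% with all mice.

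The partners of GFI1B include its paralogue GFI1 and the CoREST complex, through which GFI proteins repress genes. Rcor3, which encodes a CoREST subunit, rose in the restricted test. It read 8.60 and 8.63 with Cre against 8.05 and 8.07 without it, a difference of 0.56 (SE 0.09, adjusted p = 0.0269 from limma). The groups stood far apart relative to the spread within each, but the adjusted p was 0.143 without mouse 129 and 0.128 without mouse 135. Gfi1 was at 9.88 and 9.92 against 9.65 and 9.78 (difference 0.19, SE 0.08), which did not pass. The demethylase gene Kdm1a, the enzymatic core of the complex, differed by -0.06 (SE 0.05). Of the 7 GFI partners 4 were higher and 3 lower, with a median of 0.02.

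Among the 18 partners of LMO2 and LYL1, 3 were higher at an unadjusted p under 0.05 from limma, against 4.12% of all genes. At the same threshold 0 were lower, against 2.74%, and the median difference was 0.01. This list too was chosen with earlier results of these data known. Tcf4, which encodes the E protein E2-2, rose in the restricted test, from 9.49 and 9.51 without Cre to 9.88 and 9.90 with it (0.39, SE 0.07, adjusted p = 0.0452 from limma). It no longer passed without mouse 129 (adjusted p = 0.197), 131 (0.0533) or 135 (0.177). Runx1 and Ssbp2 differed by 0.12 (SE 0.04) and 0.10 (SE 0.04) without passing. Tal1, the closest relative of Lyl1, was between 7.05 and 7.14 in all 4 mice, and Gata1 and Gata2 were between 6.43 and 6.61, all within the range of the tissue genes. The bridging factor Ldb1 was high throughout, with a difference of -0.03 (SE 0.05).

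None of the other HOX and TALE homeobox genes passed the restricted test. Of 23 measured, 13 were higher and 10 lower with a median of 0.02, and 10 lay under the olfactory 95th percentile in every mouse. Pbx2, a cofactor of HOX proteins, differed by 0.21 (SE 0.07) and Pbx4 by -0.33 (SE 0.18), without passing. Hoxa2 differed by 0.09 (SE 0.09). The neighbouring Hoxa10 was between 5.97 and 6.09. Hoxa7 was above the tissue genes, between 7.94 and 8.24, with overlapping groups.

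The MEF2 family and the class IIa deacetylases that bind it held 6 measured genes, with 4 higher, 2 lower and 0 at an unadjusted p under 0.05. Hdac5 differed by 0.25 (SE 0.12), Hdac9 by 0.21 (SE 0.13) and Mef2d by 0.10 (SE 0.10), the last by 0.11 in its other probe set. The paralogue Mef2a was between 11.49 and 11.58.

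Of 21 genes of the KIT pathway and related receptors, 14 were higher and 7 lower, with a median of 0.05. The Src-family kinase gene Fyn rose in the restricted test, from 9.68 and 9.66 without Cre to 10.12 and 10.06 with it (0.42, SE 0.06, adjusted p = 0.0320 from limma). It no longer passed without mouse 129 (adjusted p = 0.188) or 135 (0.0674). The adaptor gene Dok2 differed by -0.34 (SE 0.11) and the receptor gene Pdgfrb by 0.43 (SE 0.14), without passing. The gene of the ligand itself, Kitl, was between 4.31 and 4.42, and the related progenitor receptor Flt3 between 5.79 and 6.04, both at the floor in all 4 mice.

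Most known targets of PU.1 were low, as Spi1 was. Of 21 measured genes 16 lay at or under the highest tissue gene and 10 lay under the olfactory 95th percentile in every mouse, 11 were higher and 10 lower, and the median was 0.00. Lyz2, the macrophage lysozyme gene, rose in the restricted test, from 6.79 and 6.29 without Cre to 7.56 and 7.59 with it (1.04, SE 0.18, adjusted p = 0.0206 from limma), and it passed with each mouse left out. Its probes may also bind the near-identical Lyz1, so the source gene is uncertain. Elane differed by -0.11 (SE 0.10) and Il7r, the interleukin-7 receptor gene, by -0.44 (SE 0.18), without passing.

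Of 38 further stem and progenitor genes measured, 23 were higher and 15 lower (median 0.02), and 9 lay under the olfactory 95th percentile in every mouse. Eng, the gene of the TGF-beta co-receptor endoglin that marks stem cells and endothelium, rose in the restricted test. It read 9.60 and 9.15 with Cre against 8.17 and 8.23 without it, a difference of 1.17 (SE 0.17, 2.25-fold, adjusted p = 0.00774 from limma), and it passed with each mouse left out. Cd93, a surface marker of early progenitors, went the other way without passing, with 8.55 and 8.60 against 9.08 and 8.90 (-0.42, SE 0.10). Etv6, an ETS repressor needed by stem cells, differed by 0.19 (SE 0.07). Cd34, the classic progenitor marker, stayed between 5.52 and 5.71.

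**Figure D4:**
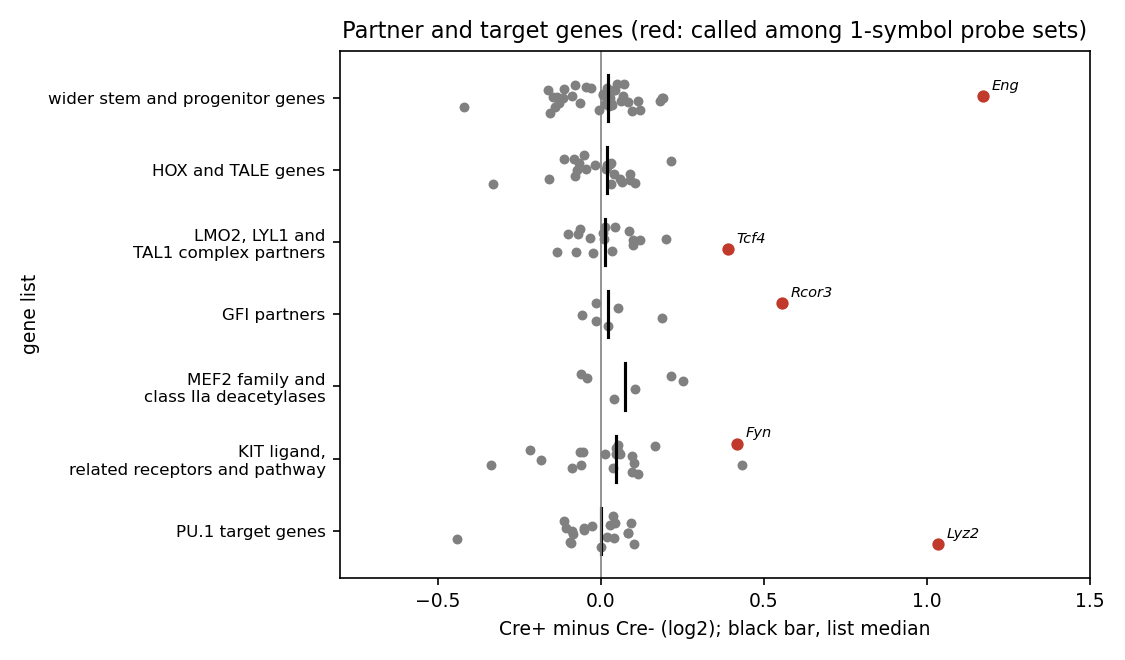
Difference between Cre+ and Cre- mice on the log2 scale for each gene of 7 lists of partners, targets and further progenitor genes (points, spread vertically at random), with the median of each list as a black bar and genes called in the restricted test in red and named. The medians lie between 0.00 and 0.07, and the 5 named genes lie to the right of 0.

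The paralogues of the 10 genes gave no call in either direction, with 6 of 12 higher and a median of -0.00. Bcl11b, the T cell paralogue of Bcl11a, read 10.75 and 10.68 with Cre and 10.58 and 10.75 without it, so the groups overlapped where those of Bcl11a did not. Of the remaining paralogues Lmo4 differed by -0.03, Meis2 by -0.05, Meis3 by -0.07, Spib by -0.03 and Spic by 0.05. Factors of the T lineage were high, with 6 of 10 higher and a median of 0.03. At an unadjusted p under 0.05 from limma there were 3 of the 10, against 6.86% of all genes, and none passed the restricted test. Runx3, which silences Cd4 in cytotoxic T cells, was at 8.77 and 8.66 against 9.19 and 9.63 (-0.69, SE 0.16). Its adjusted p from limma was 0.459 over all probe sets and 0.0644 in the restricted test. Ets1 and Satb1 differed by 0.18 (SE 0.06) and 0.13 (SE 0.05).

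The genes with a pattern most like that of Gfi1b were sought among 2042 genes whose mean lay within 0.5 of its own, by the root-mean-square distance of the 4 values after each gene's mean was subtracted. They were Lrrc49 (distance 0.03, difference 0.59), Tbc1d4 (0.06, 0.62) and Tmem132a (0.06, 0.70). With 4 arrays this is a description only.

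Markers of other cells were read beside these results. For the red cell and platelet lineages, where Gfi1b is most used, 8 erythroid markers had mean levels between 6.29 and 6.44, and those of 7 platelet markers ran from 5.97 to 6.11. All 15 lay at or under the highest tissue gene in every mouse, and 0 were at an unadjusted p under 0.05. Of these, Gata1 differed by -0.14, Tspo2 by 0.10, Ank1 by -0.08, Ppbp by -0.09, Gp9 by -0.13 and Vwf by 0.14.

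For B cells, where Bcl11a is used, 3 of 11 markers were higher and 8 lower, with mean levels of 6.26 and 6.24 with Cre and 6.16 and 6.33 without it. Of the 11, 9 lay at or under the highest tissue gene in every mouse. Under the olfactory 95th percentile in every mouse were 6, Cd79a and Ms4a1 among them, so their differences were read at the floor. Cd79a differed by -0.35 (SE 0.12). Ms4a1 was at 5.77 in mouse 137 (4.76 to 5.13 elsewhere), and Cd74, a class II gene of B and dendritic cells, was at 8.28 in that mouse (7.02 to 7.45 elsewhere). H2-Aa was likewise at 7.73 in mouse 137 (6.51 to 6.67 elsewhere). Of the other class II genes, H2-Ab1 was highest in mouse 135 (9.07, against 8.73 in mouse 137), and H2-Eb1 was between 7.16 and 7.33. The B cell gene Vpreb1 was lowest in mouse 137 (6.67). Bcl11a read 7.90 in mouse 131 and 7.64 in mouse 137, and its difference without mouse 137 was -0.70. The part of B cells in the Bcl11a result was not tested. Cd79b (0.25, SE 0.09) and the surrogate light chain gene Igll1 were among the B cell markers that were higher in Cre+ cells. Igll1, which early T cells can also express, rose in the restricted test with a difference of 1.38 (SE 0.11, adjusted p = 0.000917 from limma).

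Markers of earlier thymocytes, which also express Bcl11a, were read as well, and none of them passed the restricted test. Of 7 measured DN1 and DN2 genes 2 were higher and 5 lower, with a median of -0.38 and mean levels of 8.52 and 8.37 with Cre against 8.77 and 8.58 without it. Cd44 was at 5.96 and 5.90 against 6.40 and 6.31 (-0.42, SE 0.10), and Cd24a differed by 0.15 (SE 0.02). Both Cre+ values of Cd44 lay under the olfactory 95th percentile. Other genes of early progenitors differed little, with Cd34 at 0.005, Flt3 at -0.09 and Kit at -0.03, and Cd34 and Flt3 were at the floor. Il2ra, named after its values were seen, is counted both on this list and on that of DN3 and DN4 genes. Its difference of -0.38 was itself the median of the DN1 and DN2 list, and its level was highest in mouse 131 (11.58). In the same mouse Cpa3, a mast cell gene that progenitors also express, was at 9.16, against 7.49 to 7.67 in the others. Of 12 DN3 and DN4 genes, 10 were higher in Cre+ cells (median 0.23), against 45.9% of all genes. These stage lists too were chosen with earlier results of these data known. Cd3d (0.66), Cd3g (0.37), Cd3e (0.25) and Rag1 (0.38) rose in the restricted test, which called 1.25% of all genes, 0.953% counting higher ones alone. Of 7 DP genes, Ikzf3 rose (0.90) and Ccr9 fell (-0.64) in that test, and Cd4 differed by 0.54 (SE 0.11). The part of stage mixture in the Bcl11a result was not tested.

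Other lists held few differences. Mean levels of 13 monocyte and macrophage markers ran from 5.90 to 6.10, with C1qb at 0.26 (SE 0.19), Ms4a7 at 0.09 (SE 0.07) and Lyz2 as above, while Csf1r stayed between 5.52 and 5.63. Mean levels of 15 dendritic markers ran from 6.82 to 6.97, with Tcf4 as above and Cd209d at 0.13 (SE 0.08). Of 10 mast cell and basophil markers 0 were at an unadjusted p under 0.05, Hdc differing by 0.18 and Tpsb2 by -0.08. Among natural killer genes Gzma differed by -0.19 (SE 0.03), Klrg1 by -0.15 and Klrb1c by 0.10, without passing. Of 4 measured gamma delta T cell genes Blk fell in the restricted test (-0.51, SE 0.09, adjusted p = 0.0463 from limma), while Cd163l1 differed by -0.21 and Il23r by 0.09. Of 9 thymic epithelial genes Cldn4 differed by 0.44, Epcam by -0.48 and Krt8 by 0.13, without passing.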

How the data were processed

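Per the labels, total RNA of sorted DN4 cells went through 2 rounds of labelling before hybridisation, with 1 Affymetrix mouse array for each mouse. The authors deposited one log2 value per probe set, computed by RMA according to the submitters' processing notes. Its version, any filter and the build were not given in the sources used here. Sample columns left unused numbered 0. Per the platform annotation, 21789 of 35556 probe sets had 1 gene symbol, 1621 had several and 12146 were not listed; only the first were named. A gene was represented by its probe set with the highest mean.

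All probe sets were compared with limma 3.58.1 in R 4.3.3 (lmFit, eBayes with an intensity trend, 2 residual and 2.99 prior degrees of freedom), Benjamini-Hochberg adjustment over all 35556 and a threshold of 0.05. The restricted test was the same fit on probe sets with 1 symbol. Differences are Cre+ minus Cre- with limma's moderated SE from the fit over all probe sets; p-values rest on pooling the spread across probe sets, since an exact test of 2 against 2 mice cannot reach 0.05. A list is described by counts and medians. The 10 genes and the lists were chosen with earlier results of these data known. Named were all 10, their paralogues, and from each list the 3 genes with the smallest p and any that passed; other names were chosen after their values were seen. The fit was tested on simulated data. Alternatives were centring, quantile or cyclic loess normalization, filters on dim probe sets, eBayes without trend or robust, array weights, the restricted test, sex as a block, each mouse left out, the mean of a gene's probe sets and the 90th in place of the 95th percentile. Promoter sequences are RefSeq's, from GRCm38.p6.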

Additional observations from a re-analysis of the deposited data

Results flagged for a closer look

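For 5 of the 10 genes the female pair (mouse 129 minus mouse 131) and the male pair (mouse 135 minus mouse 137) differed in opposite directions, and the other 5 had one sign in both pairs. With 1 mouse per sex and group, the difference between the pairs was not tested. For Spi1 the difference was -0.26 in the female pair and 0.18 in the male pair, a gap of 0.44. For Lyl1 it was -0.11 and 0.28, a gap of 0.39. For Kit it was -0.17 and 0.12, a gap of 0.30. For Lmo2 it was 0.05 and -0.02 (male minus female -0.074), and for Hhex 0.01 and -0.07 (male minus female -0.087). All of these gaps are between single mice, and replicate mice of one group differed by up to 0.28 for Spi1 and 0.20 for Lyl1.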

How the results depend on the processing

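The number of probe sets called by limma over all probe sets was 0, with 2356 at an unadjusted p under 0.05. It was 10 after centring of the arrays, 25 with a filter at the 25th percentile of the mean, 80 with a filter at the median and 266 with only probe sets of 1 symbol, and 0 in the other alternatives. Of the 10 genes, 0 passed in any of these; 2 were at an unadjusted p under 0.05 in each, except when a mouse was left out, when the number ran from 1 to 2. Combined with the restricted test, an alternative chosen after seeing the data, leaving out mouse 131 called Gfi1b and leaving out mouse 137 called Bcl11a, each in 1 of 4 fits. Gfi1b ran from 0.61 to 0.62 and Bcl11a from -0.58 to -0.57 over the alternatives that kept all mice, and neither turned. With a mouse left out, the fit assumes that the lone mouse of a group varies like the others. Then the direction turned for Lmo2 (-0.012 to 0.044), Meis1 (-0.12 to 0.071), Spi1 (-0.18 to 0.10), Kit (-0.10 to 0.049), Hhex (-0.095 to 0.032) and Lyl1 (-0.014 to 0.19). The filter at the median left Gfi1b, Bcl11a, Kit and Lyl1 of the 10 genes. With the 90th percentile of olfactory receptor genes, 2 of the 10 lay under it in place of 3. Over the 10 genes, the median difference ran from -0.11 (without mouse 137) to 0.013 (without mouse 131) with a mouse left out, and was 0.03 with the filter at the median. No pairing by mouse number was possible because no Cre+ and Cre- mouse share one. Sex as a block, which pairs 129 with 131 and 135 with 137, changed no call of the 10 (adjusted p = 0.414 for Gfi1b and 0.430 for Bcl11a from limma).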
